A study of Mus musculus with 10 samples.

Results

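Calcineurin, nuclear factor of activated T cells (NFAT) and calcium/calmodulin-dependent kinase II (CaMKII) signalling was followed through 10 genes, chosen by name from 23337 genes of the count table, in sorted heart muscle cells of Actn2 knockout and heterozygous mice. Actn2 encodes alpha-actinin-2, an actin-crosslinking protein of the Z-line. The 10 genes are the calcineurin inhibitor genes Rcan1 and Rcan2, the calcineurin subunit genes Ppp3ca, Ppp3cb and Ppp3r1, the transcription factor genes Nfatc1, Nfatc3 and Nfatc4, and the kinase genes Camk2d and Camk2g. All 10 were in the table and all passed the filter on low counts, in which 11870 genes were tested. The 5 knockout samples came from mice with both Actn2 alleles floxed (Actn2-FF), so that the recombinase Cre can remove the sequence between their loxP sites. The 5 heterozygote samples, which served as controls, carried 1 floxed and 1 normal allele (Actn2-F+). Both groups received AAV9-cTNT-Cre, an adeno-associated virus that expresses Cre from the cardiac troponin T promoter, on postnatal day 1, and cells were collected on postnatal day 14, so the heterozygotes also received virus and Cre and have a floxed allele open to recombination. The labels used here give no strain or sex, and the promoter limits recombination to cells that use it.

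Calcineurin is a phosphatase that calcium and calmodulin switch on. It removes phosphates from NFAT proteins, which then enter the nucleus, and NFAT target genes include Rcan1, whose product inhibits calcineurin in turn. CaMKII is a kinase switched on by the same calcium sensor. It phosphorylates calcium-handling proteins of the cardiomyocyte and class IIa histone deacetylases, and both pathways are studied in heart growth and heart failure. Their activity is set mainly by calcium and by phosphorylation, which counts of messenger RNA do not measure.

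Total counts ran from 8086656 to 25237696 per sample, with heterozygote 1 the deepest. Actn2 stood at 1217 ± 55.3 CPM (read counts set to a common library size with TMM factors) in the knockout and 3180.5 ± 358 CPM in the heterozygote (SD, n = 5 each), with no overlap. Reads of the gene thus remained in the samples labelled knockout. Counts per gene do not tell whole transcripts from ones that lack the floxed part, or which cells held them. Summed cardiomyocyte markers (8 genes) reached 86756 to 111422 CPM in the knockout and 91169 to 114604 CPM in the heterozygote. Of these 8, Tnni3 was called lower (log2 fold change -0.53, edgeR adjusted p 0.00165) and the other 7 were not called, with 7 of the 8 log2 fold changes negative. Of 10 endothelial and endocardial markers, 1 was called lower (Egfl7) and 9 were not called, with a median log2 fold change of -0.42, and their sum was 322 to 548 CPM in the knockout and 483 to 762 CPM in the heterozygote. Fibroblast markers (8 genes, 0 of 7 tested called) summed to 318 to 648 CPM and 329.5 to 538 CPM. Smooth muscle and pericyte markers (6 genes, 1 called higher, Cspg4) summed to 199 to 308 CPM and 175 to 297 CPM. The other 5 all had negative log2 fold changes and were not called, with a median of -0.35 over the 6 genes. Cspg4 had a log2 fold change of 1.84, with means of 132 (knockouts) and 37.0 CPM (heterozygotes). The sums therefore do not show the direction of the other 5. Macrophage and leukocyte markers in the table (7 genes, 1 of 4 tested called lower, Csf1r) summed to 7.70 to 10.5 CPM and 11.97 to 34.9 CPM. Of the erythroid markers, Alas2 was at 0.0976 to 0.625 CPM and 0.123 to 1.15 CPM, and the 4 globin genes in the table had 0 counts in all 10 samples, which sets no limit on their RNA because reads shared by near-identical copies were not counted. Heterozygote 3 stood apart, with a mean of 3.90 log2 CPM over 10 interferon-response genes against -0.36 to 0.47 in the other 9 samples. In bulk samples such as these, fewer cells of a type and less RNA per cell cannot be told apart.

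The 2 genes that passed the test are introduced with the 250 bases before their start sites, since counts per gene do not tell which start a read came from. Rcan1 lies on chromosome 16 at 92391953 to 92466146 of mouse build mm10, on the minus strand, and RefSeq gives it 2 start sites, one at the far end and one inside the gene. Ppp3cb lies on chromosome 14 at 20499314 to 20546573, also on the minus strand, with 1 start site. Capitals mark GGAAA, the core of the NFAT binding motif, or its reverse complement TTTCC. The sequences are those of RefSeq on build GRCm38.p6, the assembly that mm10 also names, written 5′ to 3′ in the direction of the gene. The windows are chr16:92466170-92466419, chr16:92400079-92400328 and chr14:20546574-20546823.
Rcan1, far start: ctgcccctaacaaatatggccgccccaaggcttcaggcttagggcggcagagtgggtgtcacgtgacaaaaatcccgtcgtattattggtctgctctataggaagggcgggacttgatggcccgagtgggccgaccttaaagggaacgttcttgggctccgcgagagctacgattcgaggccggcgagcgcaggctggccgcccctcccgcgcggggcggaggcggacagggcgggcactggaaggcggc
Rcan1, inner start: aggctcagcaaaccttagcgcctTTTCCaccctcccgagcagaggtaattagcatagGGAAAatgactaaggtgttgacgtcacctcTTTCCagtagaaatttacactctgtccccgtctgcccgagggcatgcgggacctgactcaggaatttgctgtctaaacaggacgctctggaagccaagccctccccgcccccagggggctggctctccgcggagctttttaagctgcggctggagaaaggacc
Ppp3cb: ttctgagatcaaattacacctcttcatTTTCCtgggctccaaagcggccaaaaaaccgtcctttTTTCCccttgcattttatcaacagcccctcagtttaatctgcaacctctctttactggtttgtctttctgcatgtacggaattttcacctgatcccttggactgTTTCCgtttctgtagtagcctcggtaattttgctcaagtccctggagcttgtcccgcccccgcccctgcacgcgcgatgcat

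The inner Rcan1 window held 3 matches (1 GGAAA and 2 TTTCC), at 227, 193 and 163 bases before the start, and the far window held 0. The Ppp3cb window held 3, all TTTCC. Among 32851 windows of the same length in the RefSeq table, 55.6% held at least 1 match and 6.39% held at least 3. Of the 10 genes, 7 were read, with 11 windows. Ppp3ca and Camk2g had no entry under their symbols, and windows on chromosome 18, where Nfatc1 lies, were left out. Nfatc4 also held 3 matches, a window of Rcan2 held 2, Camk2d and a window of Nfatc3 held 1 each, and the other 4 windows held 0. A match of 5 letters is a description of the sequence and not a binding site.

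Rcan1 rose in the knockout and Ppp3cb fell, while the other 8 genes were not called. Across all genes, edgeR's quasi-likelihood test called 18.9% at an adjusted p below 0.05, 10.2% higher and 8.64% lower, so 2 calls among 10 genes is a share near the background. Of the calls over all genes, 54.3% were higher in the knockout, 68.9% with scaling by library totals alone and 48.2% with upper-quartile scaling, so the direction of the majority depends on the scaling. The groups did not overlap in 2 of the 10 genes, against 14.7% of all tested genes. The median log2 fold change of the 10 genes was -0.0019, against 0.0023 over all tested genes.

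**Figure D1:**
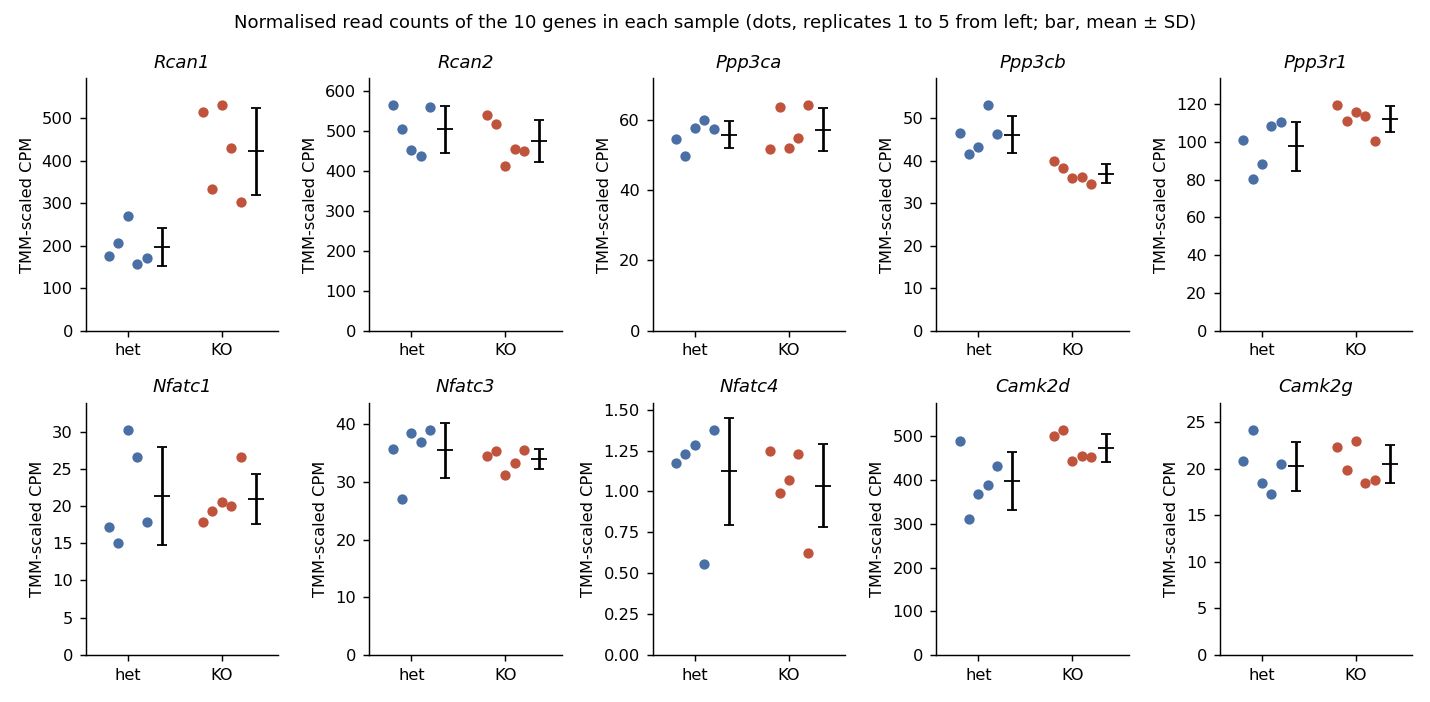
Normalised read counts (CPM, TMM-scaled) of the 10 genes in each sample, with heterozygotes (het) in blue, knockouts (KO) in red and the mean ± SD of 5 samples as a black bar. Rcan1 was at 304 to 530.0 CPM in the knockout and 157 to 269 CPM in the heterozygote, and the samples of Ppp3cb also separated, in the other direction.

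The inhibitor genes differed from each other. Rcan1 encodes regulator of calcineurin 1, which binds the phosphatase and blocks it. Knockouts 1 to 5 held 515, 334, 530.0, 429.9 and 304 CPM of it, and heterozygotes 1 to 5 held 176, 206, 269, 157 and 172 CPM. Every knockout lay above every heterozygote, although knockouts 2 and 5 lay closer to the heterozygotes than the other 3, and heterozygote 3, the sample with high interferon-response genes, was the highest of its group. The means were 423 ± 102 and 196 ± 44.5 CPM (SD, n = 5). With an SE of 0.177, taken from the F statistic of the test, the log2 fold change was 1.11 (edgeR adjusted p 0.000620), a 2.15-fold rise. Without heterozygote 3 it was 1.25, and the call held in all 21 alternative fits.

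Rcan2 (chromosome 17, 43801851 to 44039516, plus strand), the paralog of Rcan1, also encodes a calcineurin inhibitor and was at 541, 518, 413, 454 and 451 CPM in the knockouts and 564, 505, 453, 437 and 559 CPM in the heterozygotes. The groups overlapped throughout. Its log2 fold change was -0.08 with a 95% interval of -0.31 to 0.14 (edgeR adjusted p 0.633), so a change as large as that of Rcan1 lies outside the interval. Within each sample, Rcan1 made up 56.2% ± 6.89 of the pair in the knockout and 36.4% ± 6.35 in the heterozygote (mean ± SD, n = 5), on counts divided by exon length. The difference was 19.8 points. Its two-sided exact permutation p was 0.00794, which no arrangement among 252 can undercut, and 0.0238 after Benjamini-Hochberg adjustment over the 3 shares tested. The lowest knockout was number 2, at 48.8% (Wilson 95% interval 47.9 to 49.8%), and the highest was number 3, at 65.5% (64.6 to 66.4%). The heterozygotes lay below them all, from 31.3% (30.2 to 32.5%) in number 5 to 46.8% (45.4 to 48.1%) in number 3. Such intervals hold counting error alone, because reads copied by PCR are not separate molecules.

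Of the calcineurin subunit genes, one catalytic gene fell and the others were not called. Ppp3cb encodes the beta isoform of the catalytic subunit. Knockouts 1 to 5 held 39.9, 38.3, 35.8, 36.2 and 34.5 CPM of it, and heterozygotes 1 to 5 held 46.5, 41.5, 43.1, 53.0 and 46.3 CPM. The groups were apart by a small gap, between 39.9 CPM in the highest knockout and 41.5 CPM in the lowest heterozygote. The means were 36.9 ± 2.15 and 46.1 ± 4.40 CPM (SD, n = 5), and edgeR gave a log2 fold change of -0.32 with an SE of 0.0920 and an adjusted p of 0.0254, so the knockout held 0.801 of the heterozygote level. The call was lost without heterozygote 1, 4 or 5 or knockout 3, 4 or 5, at adjusted p values up to 0.0642. Without heterozygote 3 it stayed (adjusted p 0.0375), and it was lost with library totals alone (adjusted p 0.0982) and with endothelial marker expression as a covariate (-0.23, adjusted p 0.194). The endothelial markers had a median log2 fold change of -0.42, with 1 of 10 called, and their part in the fall of Ppp3cb was not tested beyond that fit. Their mean ran from 4.61 to 5.06 log2 CPM in the knockouts and from 4.96 to 5.90 log2 CPM in the heterozygotes. The covariate is thus partly tied to genotype, and a call lost with it, here or in other genes, does not tell the cause.

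Ppp3ca (chromosome 3, 136670770 to 136935779, plus strand), the gene of the alpha catalytic isoform, was at 51.7, 63.5, 52.0, 54.8 and 64.1 CPM in the knockouts and 54.4, 49.7, 57.7, 59.8 and 57.5 CPM in the heterozygotes. Knockouts 2 and 5 were the highest of all samples and knockouts 1 and 3 were among the lowest, so the groups overlapped. The log2 fold change was 0.04 with a 95% interval of -0.17 to 0.24 (edgeR adjusted p 0.831). Set against each other within each sample, Ppp3cb made up 26.9% ± 2.66 of the length-scaled counts of the pair in the knockout and 31.8% ± 1.39 in the heterozygote (mean ± SD, n = 5). The difference was -4.93 points (exact two-sided permutation p = 0.0159, adjusted 0.0238 over the 3 shares). Knockout 1, at 30.3% (Wilson 95% interval 27.6 to 33.2%), lay above heterozygote 3, at 29.7% (26.8 to 32.7%), so the shares overlapped.

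Ppp3r1 (chromosome 11, 17159298 to 17200380, plus strand) encodes the regulatory subunit that binds calcium. It was at 119, 111, 116, 114 and 100.6 CPM in the knockouts and 101, 80.6, 88.0, 108 and 110.5 CPM in the heterozygotes. In 4 of the 5 knockouts it lay above every heterozygote, and knockout 5 lay among the heterozygotes. The log2 fold change of 0.20 (95% interval -0.02 to 0.42) was not called (edgeR adjusted p 0.199).

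**Figure D2:**
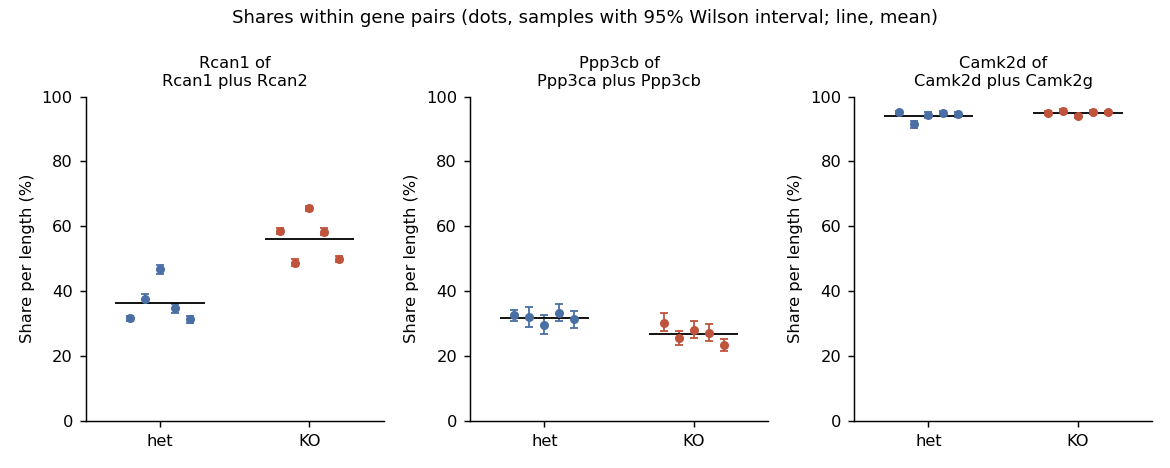
Share of the first gene in each pair, in percent of counts divided by exon length, for each sample (dots with Wilson 95% intervals) and each group mean (line). Rcan1 passed from a mean of 36.4% of its pair in heterozygotes (het) to 56.2% in knockouts (KO), the Ppp3cb share was 31.8% and 26.9%, and Camk2d held over 90% of its pair in every sample.

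None of the 3 NFAT genes was called. Nfatc3 (chromosome 8, 106059603 to 106130537, plus strand) was the most abundant of them per length. It was at 34.6, 35.4, 31.2, 33.3 and 35.5 CPM in the knockouts and 35.8, 27.1, 38.4, 37.0 and 39.1 CPM in the heterozygotes. All knockouts lay within the range of the heterozygotes, of which number 2 was the lowest. The log2 fold change was -0.06 (95% interval -0.29 to 0.17, edgeR adjusted p 0.744). Nfatc1, which is also known for its part in endocardial cushions and heart valves, was at 17.9, 19.4, 20.6, 20.01 and 26.7 CPM in the knockouts and 17.2, 14.98, 30.2, 26.5 and 17.9 CPM in the heterozygotes. Heterozygotes 3 and 4 and knockout 5 were high, so the spread within groups was wider than the difference between their means. Its log2 fold change was -0.02 (95% interval -0.42 to 0.38, edgeR adjusted p 0.953), and 0.13 without heterozygote 3. The endothelial marker mean was highest in heterozygote 4 (5.90 log2 CPM) and lowest in knockout 5 (4.61 log2 CPM). With that mean as a covariate the log2 fold change of Nfatc1 was 0.13, also not called. The part of those cells in the Nfatc1 counts was not tested beyond that fit. Nfatc4 (chromosome 14, 55824795 to 55833943, plus strand) had 5 to 28 counts per sample, and its log2 fold change was -0.16 (edgeR adjusted p 0.794). Its 95% interval ran from -0.87 to 0.55, the widest of the 10 genes.

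The CaMKII genes were not called either. Camk2d, the main CaMKII gene of the heart, encodes the delta isoform (chromosome 3, 126596973 to 126845054, plus strand). Knockouts 1 to 5 held 502, 515, 443, 456 and 453 CPM of it, and heterozygotes 1 to 5 held 488, 312, 369, 389.9 and 432 CPM. Heterozygote 1 lay among the knockouts and the other 4 heterozygotes lay below them all. The log2 fold change was 0.25 (SE 0.112, 95% interval 0.01 to 0.49), with an edgeR p of 0.0430 before and 0.140 after adjustment over all genes. It was called with library totals alone (0.33, adjusted p 0.0495). Camk2g (chromosome 14, 20734875 to 20794088, minus strand), the gene of the gamma isoform, was at 22.4, 19.9, 23.02, 18.5 and 18.8 CPM in the knockouts and 20.8, 24.2, 18.5, 17.3 and 20.5 CPM in the heterozygotes. The heterozygotes held both the lowest and the highest of these values, with a log2 fold change between the groups of 0.02 (95% interval -0.24 to 0.27, edgeR adjusted p 0.944). Camk2d held 95.03% ± 0.568 of the pair in the knockout and 94.1% ± 1.502 in the heterozygote per length (SD, n = 5, exact two-sided permutation p = 0.206, adjusted 0.206 over the 3 shares). Without knockout 3 the difference was 1.18 points and passed (adjusted p 0.0476).

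Levels can be set against each other only per length, in CPM per kb of exon. In the heterozygote the order was Rcan2 (136 ± 15.7), Camk2d (89.3 ± 14.9), Rcan1 (78.3 ± 17.8), Ppp3r1 (34.5 ± 4.59), Ppp3ca (25.4 ± 1.78), Ppp3cb (11.9 ± 1.13), Nfatc3 (5.90 ± 0.804), Camk2g (5.47 ± 0.711), Nfatc1 (2.88 ± 0.891) and Nfatc4 (0.280 ± 0.0812). The samples of Camk2d and Rcan1 overlapped, as did those of Nfatc3 and Camk2g, and all other neighbours in this order were apart. In the knockout Rcan1 had the highest mean (169 ± 40.9), ahead of Rcan2 (128 ± 14.2) and Camk2d (106 ± 7.26), with overlap between each of these neighbours. The other 7 genes kept their order. The exon lengths are those of the annotation used for counting, and a transcript end that it lacks would raise or lower a level per kb.

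**Figure D3:**
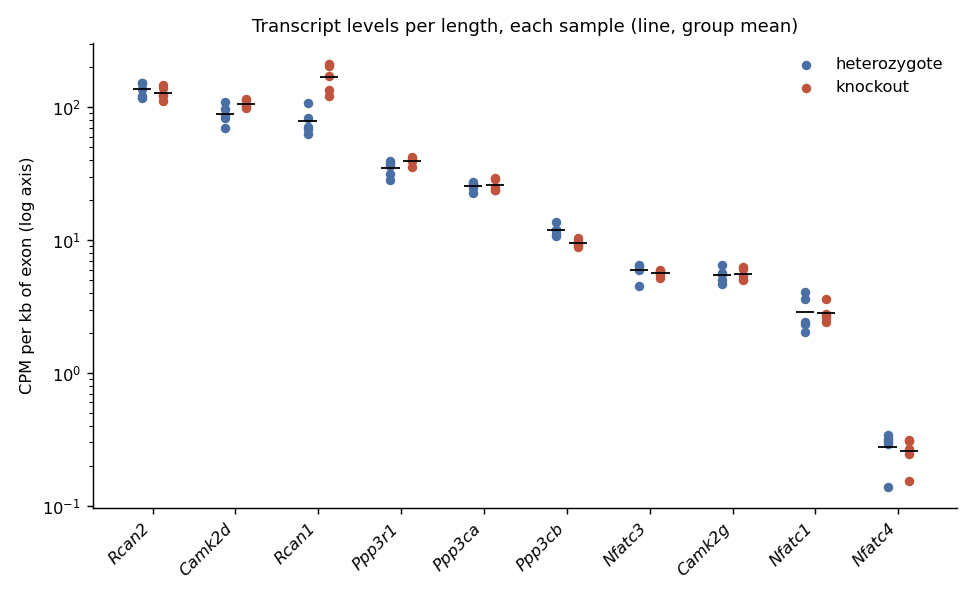
Levels of the 10 genes in CPM per kb of exon on a log axis, ordered by the heterozygote mean, with each sample as a dot and the group mean as a line. Rcan1 passed from 78.3 in heterozygotes to 169 in knockouts, and the 3 NFAT genes lay between 0.257 and 5.90 in the group means.

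The rest of the pathway was read from 5 lists with 63 genes, of which 61 were in the table and 52 were tested. Of these 52, 11 were called higher and 1 lower (23.1%, against the background of 18.9%), with a median log2 fold change of 0.17. Over all tested genes, 10.2% were called higher and 8.64% lower. The 23.1% includes the list of responsive genes below, with 4 of 7 called, which was written with their rise known. It is therefore no measure of an excess over the background. Among calcineurin subunits and modulators, 3 of 12 tested genes rose and 0 fell (25.0% called, against 18.9% of all tested genes), with a median of 0.04. They were Cib1, a calcium-binding protein that brings calcineurin to the muscle membrane (0.50, SE 0.137, edgeR adjusted p 0.0193), Lmcd1, a LIM protein that promotes calcineurin signalling (0.50, SE 0.146, adjusted p 0.02635), and Cabin1, a protein that binds and inhibits calcineurin (0.42, SE 0.132, adjusted p 0.0371). Of the 21 alternative fits, the call was lost in 2 for Cib1, 5 for Lmcd1 and 8 for Cabin1, with adjusted p values up to 0.0841, 0.0777 and 0.109. Myoz2, the Z-line protein calsarcin-1, which binds both calcineurin and alpha-actinin-2 and was chosen for naming after its values were seen, was at 929 ± 53.3 and 962 ± 79.2 CPM and was not called (-0.05, 95% interval -0.23 to 0.13). Ppp3cc, the gene of the gamma catalytic isoform, named on the same terms, was at 41.8 ± 3.82 and 42.4 ± 5.82 CPM (SD, n = 5, edgeR adjusted p 0.912).

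Of 14 tested genes for NFAT family members, nuclear partners and the kinases that return NFAT to the cytoplasm, 2 rose and 0 fell, with a median of 0.26. The share called, 14.3%, was below the 18.9% of all tested genes. Nfatc2, the family member best known from T cells, was at 53.0, 47.5, 62.4, 38.7 and 37.2 CPM in the knockouts and 28.8, 37.1, 37.8, 26.5 and 28.7 CPM in the heterozygotes. Knockout 5 lay between heterozygotes 2 and 3, and the other knockouts lay above all heterozygotes. Its log2 fold change of 0.59 (SE 0.153) had an edgeR adjusted p of 0.0149, and 0.0865 with the endothelial covariate, where the call was lost. The macrophage and leukocyte markers summed lower in every knockout than in every heterozygote, as given above, but they include none specific to T cells. The part of leukocytes in the Nfatc2 counts was not tested. Nfat5, the family member that calcineurin does not control, passed by little (0.40, SE 0.131, adjusted p 0.0461) and lost its call in 14 of the 21 alternative fits.

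Calmodulin genes, other CaM kinases, CaMKII inhibitors and class IIa histone deacetylases gave 1 rise and 0 falls among 13 tested genes, with a median of 0.02. The share called, 7.69%, was below the 18.9% of all tested genes. The gene that rose was Camk2b, which encodes the beta isoform of CaMKII. Knockouts 1 to 5 held 48.4, 37.1, 43.5, 44.1 and 35.1 CPM of it, and heterozygotes 1 to 5 held 19.4, 21.98, 26.1, 15.8 and 19.1 CPM. All knockouts lay above all heterozygotes, and edgeR gave a log2 fold change of 1.03 with an SE of 0.138 and an adjusted p of 0.000155, called in all 21 alternative fits. Per length, Camk2b made up 7.75% ± 1.01 of the 4 CaMKII genes in the knockout and 4.77% ± 1.29 in the heterozygote, while Camk2d held 82.2% ± 1.41 and 84.5% ± 3.23 (SD, n = 5).

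The next list held 6 calcium-handling and channel genes, drawn up as CaMKII substrates, and whether Hrc belongs among these was not examined. Cacna1c, the pore subunit of the L-type calcium channel, rose (0.42, SE 0.112, edgeR adjusted p 0.0168, and 0.1304 with the endothelial covariate, where the call was lost). Hrc, the histidine-rich calcium-binding protein of the sarcoplasmic reticulum, fell from 219 ± 29.6 to 149 ± 17.5 CPM (-0.55, SE 0.114, edgeR adjusted p 0.00363). The other 4 were not called (33.3% called, against 18.9% of all tested genes), and the median of the list was 0.16. Of 7 tested genes commonly read as responsive to calcineurin and NFAT, 4 rose (Nppa, Myh7, Nppb and Acta1) and 0 fell, with a median of 1.10. The share called was 57.1%, against 18.9% of all tested genes. Nppa, the gene of atrial natriuretic peptide, went from 107 ± 67.7 to 1709 ± 539 CPM and Myh7, the slow myosin heavy chain, from 445 ± 316 to 6394 ± 2908 CPM, both without overlap (log2 fold changes 3.99 and 3.85). Nppb, the gene of brain natriuretic peptide (1.10, edgeR adjusted p 0.00717), and Acta1, skeletal alpha-actin (1.78, adjusted p 0.0429), overlapped between the groups, and the call of Acta1 was lost in 9 of the 21 alternative fits. These 4 respond to many other signals, their rise in these samples was known when the list was written, and the list is no independent evidence. An exon of Myh7 overlaps the gene D830015G02Rik, and reads there were not counted for either. Of the 12 called genes in the 5 lists, Camk2b, Hrc, Nppa, Myh7 and Nppb kept their call in all 21 alternative fits. With the endothelial covariate the lists held 5 calls, and without knockout 3 they held 7.

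**Figure D4:**
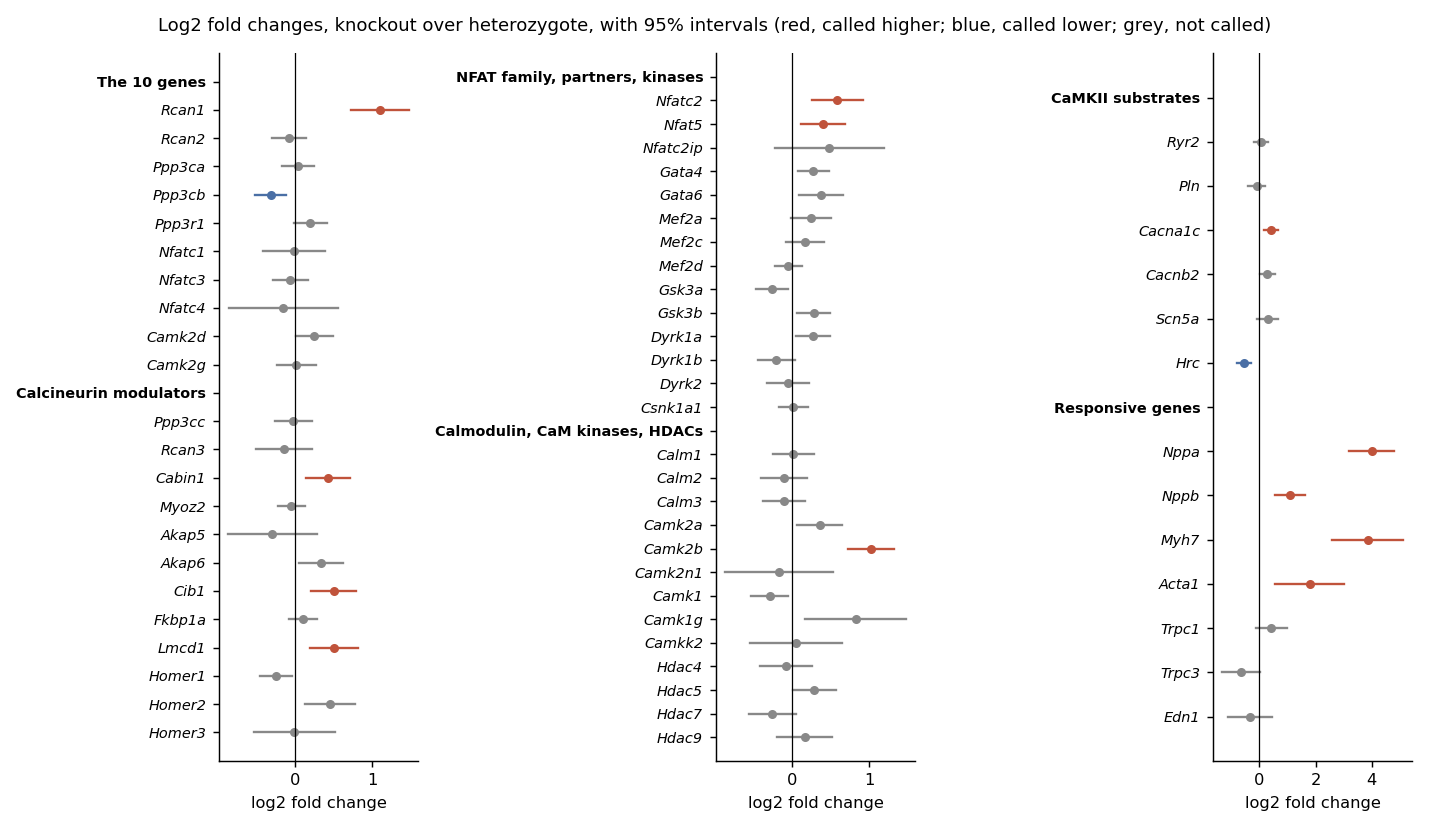
Log2 fold changes (knockout over heterozygote) of all tested genes of the 10 and of the 5 lists, with 95% intervals, red where called higher, blue where called lower and grey where not called. The right panel has a wider scale. Rcan1 (1.11) and Camk2b (1.03) are called higher, and Camk1g (0.83, 95% interval 0.17 to 1.48) is the closest CaM kinase gene to them but is not called.

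The genes closest to the 2 called ones were sought over the 10 samples after the group means had been removed. The difference between the group means thus adds nothing to the likeness. Any variation among the knockouts in how strongly they responded remains in it, and its part was not tested. Among 8369 genes whose mean reached 10 CPM, the highest Pearson correlations of log2 CPM with Rcan1 were those of Camk2b (r = 0.918), the tubulin-folding cofactor gene Tbcc (0.916) and the corepressor subunit gene Sap30 (0.908). With Ppp3cb they were those of Rab8b (0.971), a gene of vesicle transport, Stt3a (0.951), a gene of protein glycosylation, and Nptn (0.921), the neuroplastin gene. These are the top of many correlations over few samples that share libraries and depth, and are given as a description.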

How the data were processed

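RNA of sorted cardiomyocytes was measured in 5 knockout and 5 heterozygote samples, which the design text calls biological replicates. The deposited values are whole-number counts of reads per gene, without scaling. FeatureCounts 1.5.1, on 4 threads and with no other option, made the counts, per the file headers, from the UCSC mm10 annotation of a 2012 archive. By that program's defaults, strand is ignored, multi-mapping reads and reads shared between genes are dropped, and no exon of the 10 genes overlaps another gene. The gene lengths in the deposited table are the authors' merged exon lengths in bases. The submitters' processing notes name STAR 2.5.3a and Subread 1.5.2, which is not the version in the header. Of 14 count columns, 4 match no sample of the series and were not used.

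Genes were filtered with filterByExpr (minimum count 10, minimum total 15), scaled with TMM and tested by quasi-likelihood in edgeR 4.0.16 under R 4.3.3, with genotype as the only term. Benjamini-Hochberg adjustment of p-values covered 11870 genes, with a threshold of 0.05. The quasi-likelihood test gives no SE, so each SE is the absolute log2 fold change divided by the square root of the F statistic. Intervals of log2 fold changes use this SE and the moderated degrees of freedom. Log2 CPM uses a prior count of 1. Shares were compared by exact permutation (scipy 1.17.1). The depth of 8086656 to 25237696 counts puts the smallest visible share of a library (3 counts) at 1.19e-05% to 3.71e-05%. Replicate pairs differed by 10.8 to 37.5 in chi-square per degree of freedom, so none was a copy of another.

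On simulated counts for 11870 genes of this comparison, 76.5% of 98 genes changed 2-fold and 100.0% of 100 changed 4-fold were called, while unchanged genes made up 7.89% of all calls. Far fewer genes were changed there than the 18.9% called in the data. The 7.89% depends on that number and does not carry over to the calls here. Changes below 2-fold, such as that of Ppp3cb, were not simulated. The 10 genes, the lists and the interferon genes were chosen with earlier results of these data known. Named from each list were called genes whose mean reached 10 CPM, at most the 5 with the smallest adjusted p, and, for called members of the 10, the 3 genes of highest correlation within groups. Alternatives were RLE and upper-quartile scaling, library totals, no filter, a filter at 5 CPM on average, a replicate block, sva 3.50.0 with 1 surrogate variable, endothelial and Y-linked covariates, DESeq2 1.42.0, limma's voom (limma 3.58.1), unscaled shares and leaving out each sample.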

Additional observations from a re-analysis of the deposited data

Results flagged for a closer look

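In 54 groups of 5 values (a gene, a share or a total in 1 genotype), 6 held a value set apart from the other 4 by more than 0.71 of the whole range, which chance alone gives in about 1 of 20 groups, or 2.7 of these 54. Nfatc3 was at 4.77 log2 CPM in heterozygote 2, against 5.16 in the next lowest heterozygote. The Camk2d share of its pair was 91.4% in the same sample (Wilson 95% interval 90.2 to 92.5%), against 94.3% in the next lowest. Nfatc4 was at -0.65 log2 CPM in heterozygote 4, against 0.33, and that sample had 5 counts of it. In knockout 1, Nfat5 stood at 4.01 log2 CPM, while the next lowest knockout stood at 4.53. Myh7 stood at 10.73 log2 CPM in that sample, and 12.52 was the next lowest. The total count of heterozygote 1 was 25237696, against 10309615 in the next deepest heterozygote.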

How the results depend on the processing

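Calls over all genes numbered 1463 with the endothelial covariate, in place of 2241, 1358 of them shared, and 1699 to 2258 when single samples were left out. Calls among the 10 genes numbered 1 with the endothelial covariate and 1 to 2 without single samples. Calls in the pathway lists numbered 21 with library totals alone, 20 with 1 surrogate variable, 5 with the endothelial covariate and 7 to 14 without single samples, in place of 12. The labels do not say that a replicate number marks a shared litter or batch, so the numbers were not taken as pairs. Same-numbered samples correlated at -0.0604 to 0.185 in their deviations, and 4 of 10 samples correlated best with their own number. These values do not decide whether the samples were paired. With the replicate number as a block 2182 genes were called, 1961 of them shared, 1 of the 10 genes was called (Ppp3cb lost its call, at an adjusted p of 0.0615), and 13 list genes. Under that block the shares differed by 19.8 points for Rcan1 and -4.93 points for Ppp3cb, both with an exact p of 0.0625, the smallest it allows, and an adjusted p of 0.0938.

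Without single samples the share differences ran from 17.5 to 22.4 points for Rcan1, -5.80 to -4.04 points for Ppp3cb and 0.289 to 1.21 points for Camk2d. Log2 fold changes near 0 changed sign. Camk2g reached -0.012 with upper quartiles, -0.080 with the endothelial and -0.0055 with the Y-linked covariate, and ran from -0.035 to 0.087 without single samples. Nfatc1 reached 0.057 with library totals, 0.0080 with the replicate block, 0.13 with the endothelial and 0.044 with the Y-linked covariate and 0.021 with voom, and ran from -0.13 to 0.13. Nfatc3 reached 0.017 with library totals and Ppp3ca -0.012 with voom, and without single samples Ppp3ca ran from -0.0063 to 0.073 and Nfatc4 from -0.31 to 0.0049. Rcan1 (1.01 to 1.25), Rcan2 and Ppp3r1 kept their direction and their call, or lack of one, under all 21 alternatives.

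Calls of list genes were lost without single samples for Cib1 (knockout 3, adjusted p 0.0573), Lmcd1 (heterozygotes 1 and 5, knockouts 1 and 3, up to 0.0777), Cabin1 (heterozygotes 1 and 5, knockouts 1, 2, 3 and 5, up to 0.0933), Nfat5 (heterozygotes 1, 2, 3 and 5, knockouts 2 to 5, up to 0.110) and Acta1 (heterozygotes 1, 3, 4 and 5, knockouts 1 to 3, up to 0.127). The causes were not tested.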

Other observations

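Of the tested genes in the 5 pathway lists, 11 had an edgeR adjusted p from 0.05 to below 0.1 and were not called, 8 with a positive and 3 with a negative log2 fold change. The positive values were those of Homer2 (0.45, adjusted p 0.0542), Gata4 (0.28, 0.0559), Gata6 (0.38, 0.0605), Gsk3b (0.28, 0.0648), Dyrk1a (0.28, 0.0731), Camk1g (0.83, 0.0756), Camk2a (0.36, 0.0831) and Akap6 (0.34, 0.0894). The negative values were those of Camk1 (-0.29, adjusted p 0.0835), Gsk3a (-0.25, 0.0878) and Homer1 (-0.25, 0.0903). Homer1 and Homer2 encode scaffold proteins of calcium signalling, and the Gsk3 and Dyrk1a kinases phosphorylate NFAT proteins. These genes were picked for their adjusted p. How many of all tested genes fell in this range was not counted, so the 11 are no measure of an excess. Per length, Ppp3cc held 37.6% ± 3.53 of the 3 catalytic calcineurin genes in the knockout and 36.8% ± 4.88 in the heterozygote, beside 45.7% ± 4.24 and 43.1% ± 3.17 for Ppp3ca. Ppp3cb held 16.7% ± 0.766 (15.6 to 17.7%) and 20.1% ± 2.03 (18.4 to 23.6%). Its shares among the 3 genes did not overlap, unlike those of its pair with Ppp3ca, and were not tested. The sum of the 3 genes was 57.0 ± 2.03 and 59.1 ± 1.16 CPM per kb.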
